A study of Rattus norvegicus with 12 samples.

Results

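The ZIP (Slc39a) and ZnT (Slc30a) families move zinc and other divalent metals across membranes, and 9 of their genes, among 13810 genes named on the arrays, were followed in scrapings of rat jejunal mucosa from a low Fe and a high Fe group. All probe sets whose only gene symbol on the platform was Slc39a1, Slc39a4, Slc39a6, Slc39a7, Slc39a8, Slc39a14, Slc30a1, Slc30a2 or Slc30a4 were taken, which gave 14 of the 31142 probe sets on the 2 Affymetrix rat arrays, 8 on 230A and 6 on 230B. Slc39a6 had 3 probe sets, all on 230B, while Slc39a14, Slc30a2 and Slc30a4 each had 1 on either array type, and the other genes had 1 on 230A. There were 3 low Fe and 3 high Fe samples, and every sample was run on both array types. All are labelled as week 12, and the labels of the 230A arrays add the keywords iron-deficiency and anemia. The labels used here do not say whether week 12 is the age of the rats. They give no strain, diet or pooling of animals. Since nothing says that each sample is a separate animal, the p-values reflect only how far these samples differ, and that spread may be technical.

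ZIP proteins carry zinc toward the cytosol, from outside the cell or from internal stores, and ZnT proteins carry it out of the cytosol, to the outside or into vesicles and the Golgi. In the small intestine Slc39a4 takes up dietary zinc at the apical membrane of enterocytes, and Slc30a1 passes it on at the basolateral membrane. Slc39a8 and Slc39a14 also carry iron and manganese, which places them beside Slc11a2, the apical importer of ferrous iron. Zinc in the cytosol activates the transcription factor Mtf1, which binds metal response elements of metallothionein genes and of Slc30a1.

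The promoters of Slc30a1 and of Mt2A, a zinc-binding metallothionein, are shown because both genes are known targets of Mtf1 and their signals differed in how they stood between the groups. Each window runs from 250 bases before to 50 bases after the start of the gene in RefSeq, build GRCr8, 5′ to 3′ on the strand of the gene, at chr13:106021769-106022068 (plus strand) and chr19:10838659-10838958 (minus strand). Capitals mark the core of the metal response element, TGCACNC or TGCGCNC on either strand.
Slc30a1: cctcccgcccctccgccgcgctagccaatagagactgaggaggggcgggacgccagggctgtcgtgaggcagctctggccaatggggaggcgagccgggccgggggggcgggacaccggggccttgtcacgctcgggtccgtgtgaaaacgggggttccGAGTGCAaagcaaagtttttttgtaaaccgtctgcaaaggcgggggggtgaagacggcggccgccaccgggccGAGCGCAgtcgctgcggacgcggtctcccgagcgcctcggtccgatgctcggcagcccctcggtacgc
Mt2A: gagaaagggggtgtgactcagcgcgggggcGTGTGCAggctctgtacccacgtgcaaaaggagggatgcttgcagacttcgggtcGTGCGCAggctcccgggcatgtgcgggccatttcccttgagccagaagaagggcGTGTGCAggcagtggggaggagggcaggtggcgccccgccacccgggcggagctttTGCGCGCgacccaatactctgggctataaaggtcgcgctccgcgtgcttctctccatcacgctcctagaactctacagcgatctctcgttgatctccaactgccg
The Slc30a1 window held 2 matches, which begin at positions -91 and -18 relative to the start, and the Mt2A window held 4, at -220, -165, -111 and -55. Of the 33469 RefSeq promoters of the same length, 24.2% held at least 1 match and 1.68% held 3 or more. The looser pattern TGCNCNC matched 2 times in Slc30a1, 5 times in Mt2A and at least once in 49.6% of promoters. Of the 9 transporter genes 7 were in the promoter table. Beside Slc30a1, the narrower core was found once in Slc39a1, 3 times in Slc30a4 and not in Slc39a6 or Slc39a8. Slc30a2, with 2 listed starts, had 3 matches at one and none at the other, and Slc39a7 had 4 at each of its starts, where some overlap each other. A match is a string of letters in the window and does not show that Mtf1 binds there.

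None of the 13 member probe sets that passed the filter on dim signals differed between low Fe and high Fe at an adjusted p of 0.05 (limma with Benjamini-Hochberg adjustment over all tested probe sets of the array type). The rate over all tested probe sets was 0.0945% on 230A (9 of 9519, with 0.084% higher and 0.0105% lower in low Fe) and 0% on 230B (0 of 9165, in either direction). At an unadjusted p under 0.05 there were 2 members, Slc39a4 on 230A and the brightest Slc39a6 probe set on 230B, where the rates over all tested probe sets were 6.68% and 10.2%. The low Fe and high Fe arrays did not overlap for 3 of the 13, with 2 lower in low Fe on 230A and 1 higher in low Fe on 230B. Groups were apart in this way for 11.8% of all tested probe sets on 230A (5.61% higher and 6.18% lower in low Fe) and for 17.4% on 230B (7.11% higher and 10.3% lower). The median log2 difference of the members, low Fe minus high Fe, was -0.02 on 230A, as over all tested probe sets, where it was also -0.02. On 230B it was -0.17 over the 5 tested members against -0.04 over all tested probe sets. Log2 differences are of log2(signal + 16), which understates differences of dim probe sets, and signals are the authors' scaled intensities, which are compared between samples and not between probe sets.

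**Figure D1:**
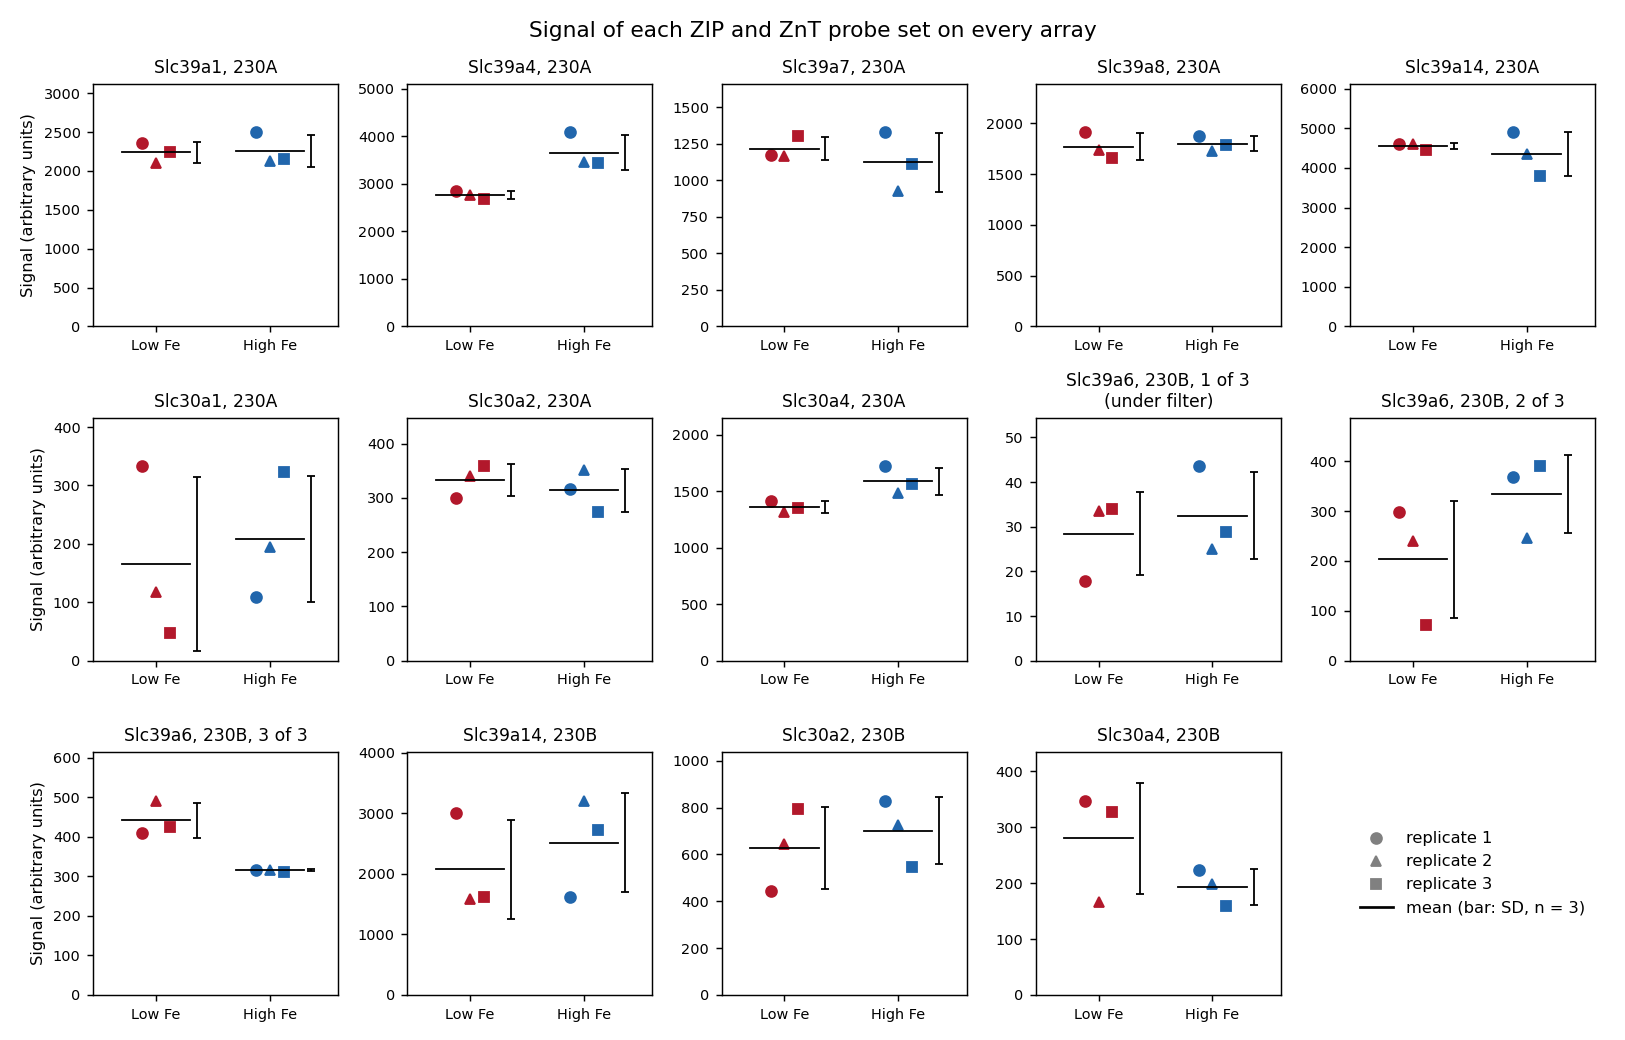
Signal (arbitrary units, linear axes from 0) of the 14 ZIP and ZnT probe sets on each array, low Fe in red at the left and high Fe in blue at the right of each panel. Symbols mark the replicate number, horizontal lines the mean and vertical bars the SD (n = 3). The groups are apart for Slc39a4 and Slc30a4 on 230A and for the brightest Slc39a6 probe set on 230B, and overlap in the other 11 panels.

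Among the importers, Slc39a4 had signals of 2839.5, 2772 and 2673 in low Fe replicates 1 to 3, against 4082.8, 3456.4 and 3429.1 in high Fe replicates 1 to 3. All 3 low Fe arrays lay below all 3 high Fe arrays, and high Fe replicate 1 was the highest. Mutations of the human gene cause acrodermatitis enteropathica, an inherited zinc deficiency. The means were 2762 ± 83.8 in low Fe and 3656 ± 369.8 in high Fe (SD, n = 3 each), a 0.759-fold ratio of low Fe over high Fe with a 95% interval from 0.630 to 0.914. The log2 difference of -0.40 ± 0.12 (SE) had an unadjusted limma p of 0.00855 and did not pass after adjustment over all 230A probe sets (adjusted p = 0.586). It ran from -0.44 to -0.32 when each array was left out in turn. Arrays scaled to the hybridization controls, spiked-in bacterial and phage transcripts, gave -0.04 ± 0.34 for Slc39a4, but that scaling also moved the median of all tested 230A probe sets to 0.33, above the Slc39a4 value.

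The lower Slc39a4 signal was set beside markers of the cells in a mucosal scrape. Of 8 enterocyte markers tested on 230A (Fabp1, Fabp2, Apoa1, Apoa4, Alpi, Slc5a1, Anpep and Si), 7 had log2 differences below 0 and none passed. Their summed signal ran from 85700 to 112000 in low Fe and from 82460 to 138100 in high Fe, so the groups overlapped. Such sums add the brightest probe set of each gene and are led by bright probe sets. They are compared only between samples and do not measure amounts of cells. Smooth muscle markers had a summed signal of 4438 to 5822 in low Fe and 3405 to 4092 in high Fe, with all 5 tested of 7 markers above 0 and none past the threshold. Most of that sum was Mylk, with 3390.7, 4013.3 and 3730 in low Fe, against 2899.2, 2436 and 2925.9 in high Fe. The groups were also apart for Des, Smtn and Tagln and overlapped for Acta2, Myh11 and Cnn1. On 230B the summed smooth muscle signal overlapped, with 882.1 to 1444 in low Fe and 918.9 to 1346 in high Fe. Crypt and proliferation markers had 2190 to 3300 in low Fe and 1287 to 1385 in high Fe, with all 3 tested probe sets above 0 and none past the threshold. Most of that sum was Pcna, with 1916.6, 2686 and 1736.8 in low Fe, against 1068.2, 1000 and 1045.1 in high Fe. The groups were also apart for Mki67 but overlapped for both Top2a probe sets. They overlapped too for the stem cell marker Lgr5, under the filter, with 50.7, 61 and 74.1 in low Fe, against 54.2, 62.9 and 51.6 in high Fe. The summed signals of goblet, Paneth, enteroendocrine, fibroblast and immune markers overlapped between the groups on 230A, and none of their tested probe sets passed. The enterocyte marker Vil1, read on 230B, overlapped too. The part of any of these cells in the Slc39a4 value was not tested, and fewer cells of a type and less RNA per cell cannot be told apart in such scrapings.

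Slc39a14, an importer of zinc, manganese and iron not bound to transferrin, was read by 1 probe set on each array type, and these behaved differently. On 230A its signals were 4600.2, 4608.1 and 4460.4 in low Fe replicates 1 to 3, against 4901.1, 4363.2 and 3792.1 in high Fe replicates 1 to 3. The log2 difference was 0.07 ± 0.12 (limma adjusted p = 0.916), and its 95% interval excluded ratios of low Fe over high Fe below 0.865 and above 1.28. On 230B the signals were 3013.7, 1591.3 and 1619.8 in low Fe replicates 1 to 3, against 1616.8, 3211.2 and 2722.5 in high Fe replicates 1 to 3. Here 3 arrays (low Fe replicate 1, high Fe replicates 2 and 3) were high and the other 3 were low, across the iron groups. The difference was -0.29 ± 0.32 (adjusted p = 0.748).

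The 3 arrays with the lower Slc39a14 signals on 230B also had the lower values of a sign of RNA quality. The ratio of the 5′ to the 3′ control probe set of beta-actin drops where transcripts or targets are truncated. On 230B it was 0.0473, 0.499 and 0.641 in low Fe replicate 3, high Fe replicate 1 and low Fe replicate 2, and 0.779 to 0.896 in the other 3 arrays. The same 3 samples had the lower ratios on 230A, both for beta-actin (0.0539 to 0.620, against 0.737 to 0.836) and for GAPDH (0.794 to 0.811, against 0.876 to 0.922). The GAPDH ratio on 230B separated them only narrowly, with 0.873 as the highest of the lower set and 0.877 as the lowest of the others. Within the lower set, with only high Fe replicate 1 on one side, Slc39a14 on 230B gave a log2 difference of -0.01. Within the higher set, with only low Fe replicate 1 on one side, it was 0.03. With the 2 sets as a block the difference was 0.0087 ± 0.16 (limma adjusted p = 0.989). The split was seen before the sets were compared, so these small differences follow from it and do not test RNA quality. Low Fe replicate 3, with the lowest beta-actin ratio, did not have the lowest signal. All 3 arrays of the lower set lay below all others for 1 of the 5 tested 230B members, Slc39a14, and for 8.97% of tested 230B probe sets. They lay above all others for 0 of these members and for 8.19% of tested 230B probe sets.

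Slc39a8, a carrier of zinc, manganese, cadmium and iron, had signals of 1914.2, 1740.3 and 1657.4 in low Fe replicates 1 to 3, against 1876, 1733.4 and 1792.2 in high Fe replicates 1 to 3. The groups overlapped almost wholly, and the log2 difference was -0.03 ± 0.12, with a 95% interval of 0.817 to 1.18 for the ratio. Slc39a1, a widely expressed importer of the plasma membrane, had 2362.7, 2102 and 2249.6 in low Fe, against 2498.6, 2128.1 and 2150.4 in high Fe. Its log2 difference was -0.01 ± 0.12, with an interval of the ratio from 0.820 to 1.20. The sign of both values depended on the scaling. With arrays set to a common median they were 0.06 for Slc39a1 and 0.04 for Slc39a8, where the median of all tested probe sets was 0.05, and with quantile normalization they were -0.05 and -0.06. Slc39a7, which releases zinc from the endoplasmic reticulum and Golgi, had 1174.9, 1164.5 and 1306.1 in low Fe, against 1329.3, 928.3 and 1114.9 in high Fe. The high Fe arrays spread wider than the low Fe ones and enclosed them, and the log2 difference was 0.12 ± 0.15 (adjusted p = 0.885).

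Slc39a6, a zinc importer of the LIV-1 subfamily, was read by 3 probe sets on 230B that disagreed. The probe set with the highest mean had 409.8, 492 and 424 in low Fe replicates 1 to 3, against 316.8, 316.4 and 312.3 in high Fe replicates 1 to 3. All low Fe arrays lay above all high Fe arrays, and the high Fe arrays lay close together. Its log2 difference was 0.46 ± 0.19, or 1.38-fold with a 95% interval from 1.02 to 1.86, and did not pass (unadjusted p = 0.0386, limma adjusted p = 0.466). The second probe set had 298.5, 239.5 and 70.8 in low Fe, against 369.2, 245 and 389.5 in high Fe. Its groups overlapped, and low Fe replicate 3, the array with the lowest beta-actin ratio, stood far below the others. The difference was -0.85 ± 0.48 (adjusted p = 0.559), with -0.28 when low Fe replicate 3 was left out and -1.21 when low Fe replicate 1 was. The third probe set was under the filter boundary of 182.9 on every array, with 17.8, 33.6 and 34 in low Fe and 43.5, 25 and 28.9 in high Fe. It was left out of the main test, and the fit without a filter gave -0.13 ± 0.29.

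Among the exporters, Slc30a1 had the widest spread between arrays of all 14 probe sets. Its signals were 332.6, 117.4 and 47.7 in low Fe replicates 1 to 3, against 108.2, 194.7 and 323 in high Fe replicates 1 to 3, so the highest was 6.97 times the lowest and the groups overlapped fully. The log2 difference was -0.53 ± 0.57 (limma adjusted p = 0.866), and its interval ran from 0.281-fold to 1.71-fold, which leaves a wide range of differences not detectable with these arrays. The 3 arrays with the lower beta-actin and GAPDH ratios held the 3 lowest signals, and low Fe replicate 3 the lowest of all. The lower-ratio arrays all lay below the others for 1 of the 8 members on 230A, Slc30a1, and for 11.9% of tested 230A probe sets. They all lay above the others for 0 of these members and for 9.37% of tested 230A probe sets. With the ratio sets as a block the Slc30a1 difference was -0.02 ± 0.34. It was -0.43 within the lower set, with only high Fe replicate 1 on one side, and 0.38 within the higher set, with only low Fe replicate 1. The sets already separate the Slc30a1 signals, so the smaller block value follows from that and does not test RNA quality. Left-out arrays moved the difference from -1.17 (without low Fe replicate 1) to 0.06 (without low Fe replicate 3).

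**Figure D2:**
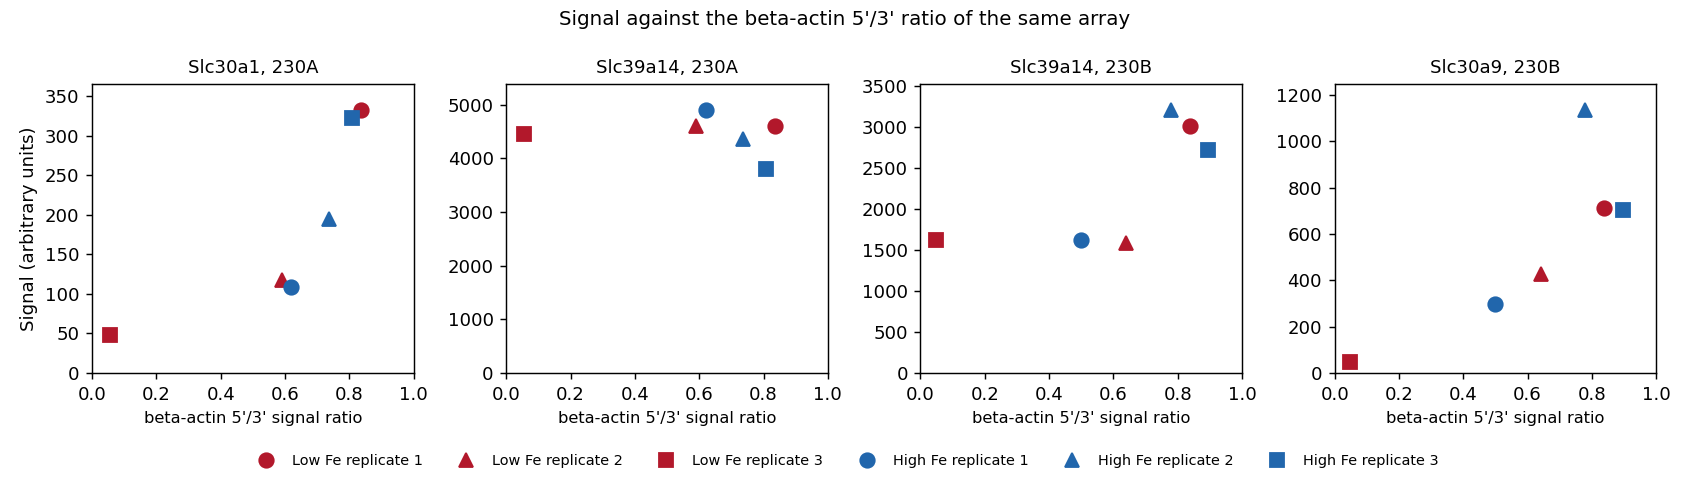
Signal (arbitrary units) of Slc30a1 and of both Slc39a14 probe sets, and of Slc30a9 on 230B, against the beta-actin 5′/3′ ratio of the same array, with low Fe in red, high Fe in blue and a symbol for each replicate. For Slc30a1, for Slc39a14 on 230B and for Slc30a9 on 230B, the 3 arrays with the lowest ratios have the 3 lowest signals, while Slc39a14 on 230A stays between 3792.1 and 4901.1.

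The same order was seen on 230B in a transporter outside the 9 members, Slc30a9, chosen here after its values were seen. Its 230B probe set had 711, 426.8 and 48 in low Fe replicates 1 to 3, against 296, 1135.5 and 703.5 in high Fe replicates 1 to 3. The tested 230A probe set of Slc30a9 did not follow that order, with 378.8, 366.9 and 408.6 in low Fe, against 419.1, 315.6 and 299 in high Fe. Of 12 tested 230A probe sets of other zinc genes, described below, the lower-ratio arrays all lay below the others for 2. They all lay above the others for 1, Slc39a11, with 835.8, 1590.6 and 1447.9 in low Fe, against 1462.6, 1129.5 and 1033.2 in high Fe. The rates over all tested 230A probe sets were 11.9% below and 9.37% above. Of the 5 tested on 230B, 1 was below, Slc30a9, and 0 above, where the rates were 8.97% and 8.19%. The part of RNA quality in the values of Slc30a1, and of Slc39a14 and Slc30a9 on 230B, was not tested. The ratio sets already separate these signals, so the block and the values within the sets cannot test it.

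Slc30a4, which loads zinc into vesicles and whose mouse mutation lowers zinc in milk, had 1414.4, 1311.6 and 1351.8 on 230A in low Fe replicates 1 to 3, against 1719.4, 1484.4 and 1562.6 in high Fe replicates 1 to 3. All low Fe arrays lay below all high Fe arrays. The means were 1359 ± 51.8 and 1589 ± 119.7 (SD, n = 3 each) in low Fe and high Fe, a ratio of 0.858 with a 95% interval from 0.712 to 1.035. The log2 difference of -0.22 ± 0.12 did not pass (unadjusted p = 0.0976, limma adjusted p = 0.774). It was 0.13 after scaling to the hybridization controls, still below the shifted median of all tested probe sets of 0.33. Its 230B probe set pointed the other way, with 347.9, 166.6 and 328 in low Fe, against 223, 199.1 and 159.3 in high Fe. There the groups overlapped through low Fe replicate 2, and the difference was 0.45 ± 0.35 (adjusted p = 0.647), with 0.27 when low Fe replicate 1 was left out and 0.77 when low Fe replicate 2 was.

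Slc30a2, an exporter of zinc into vesicles of secretory cells, had 299.4, 340.4 and 358 on 230A in low Fe, against 316.7, 351.6 and 273.5 in high Fe. The log2 difference was 0.08 ± 0.16 with an interval of the ratio from 0.829 to 1.35. On 230B it had 444.8, 643.2 and 796.3 in low Fe, against 830.2, 725.4 and 548 in high Fe. The groups overlapped on both array types, and the 230B difference was -0.17 ± 0.26 (adjusted p = 0.816).

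Precision differed between the array types. Apart from Slc30a1, the 7 members on 230A had standard errors of 0.12 to 0.16 on the log2 scale, and their 95% intervals together spanned ratios of 0.630 to 1.39. The 5 tested members on 230B had standard errors of 0.19 to 0.48, with intervals that together spanned 0.258 to 2.37. In the same 230A samples Slc11a2 had 12950.4, 13481.6 and 11840.9 in low Fe, against 3397.6, 2280 and 2767.4 in high Fe, a log2 difference of 2.19 ± 0.15 (limma adjusted p = 0.000892) for the brighter of its 2 probe sets. The other gave 1.73 ± 0.26 and did not pass (adjusted p = 0.0806). The intervals of Slc39a8 and Slc39a14 on 230A end at ratios of 1.18 and 1.28, whereas those of the 2 Slc11a2 probe sets begin at 3.58 and 2.20. The 230B probe set of Slc39a14 had a wider interval, from 0.494 to 1.36.

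**Figure D3:**
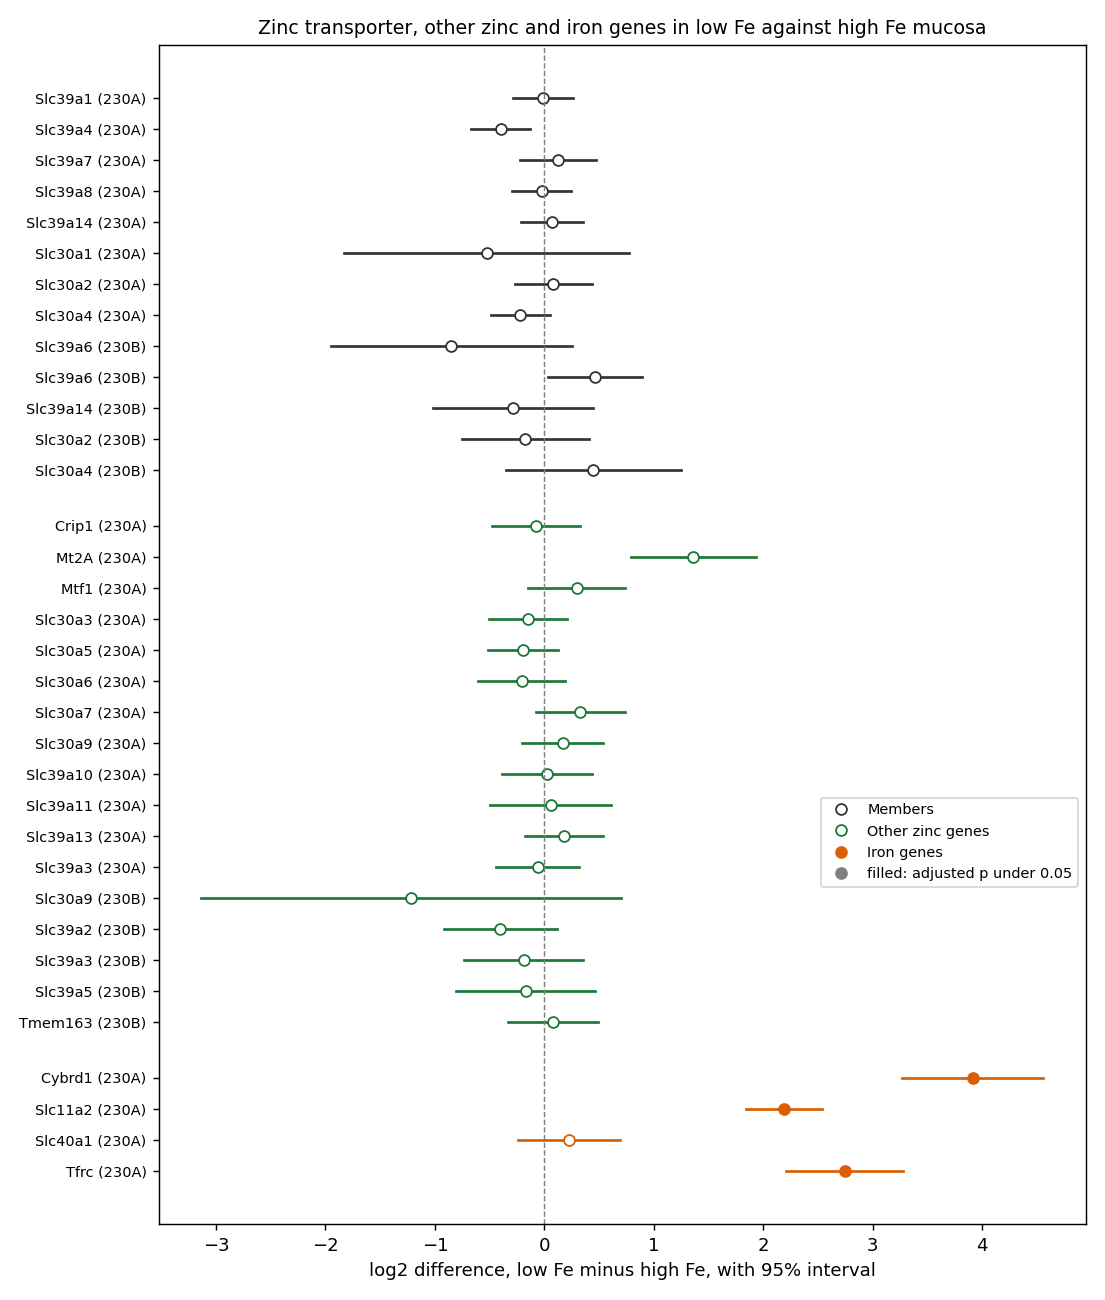
Log2 difference in signal, low Fe minus high Fe, with 95% intervals (n = 3 arrays each) for the 13 tested member probe sets, 17 tested probe sets of other zinc genes and the brightest probe set of 4 iron genes. Filled points passed adjusted p 0.05, which were Cybrd1, Slc11a2 and Tfrc. The remaining iron gene, Slc40a1, did not pass (0.22 ± 0.21, limma adjusted p = 0.857). No member and no other zinc gene passed, and Mt2A lies farthest to the right among the zinc genes.

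The other genes of zinc handling on the arrays were further ZIP and ZnT transporters, metallothioneins, Mtf1, the zinc efflux protein Tmem163 and the zinc-binding intestinal protein Crip1. Of 24 probe sets for 18 such genes, 17 were tested and 0 passed by limma, with 1 at an unadjusted p under 0.05. Of the 17, 8 had log2 differences above 0 and 9 below. Mt2A had 1279.5, 2123 and 1598.4 in low Fe replicates 1 to 3, against 548.7, 494 and 901.1 in high Fe replicates 1 to 3. Every low Fe array lay above every high Fe array, with a log2 difference of 1.36 ± 0.25, or 2.57-fold (95% interval from 1.73 to 3.82, unadjusted p = 0.000462, adjusted p = 0.184). The difference was above 0 under all 17 alternatives, from 1.17 to 1.71. Among these the filters, the eBayes variants and the replicate block leave the estimate unchanged by construction, so they could not alter its sign. The limma adjusted p of Mt2A ran from 0.0737 to 0.816 over left-out arrays, with 0.816 without low Fe replicate 2. It was 0.515 with the replicate number as a block. Mt2A passed under 1 alternative, scaling to the hybridization controls (1.71 ± 0.40, adjusted p = 0.00805), which moved the median of all tested 230A probe sets to 0.33. That fit pooled the spread over probe sets to 38100 degrees of freedom, against 8.84 in the main analysis, so its p does not measure the spread between 6 arrays. Metallothioneins are closely similar in sequence, so part of the Mt2A signal may come from other family members. Slc30a1, whose promoter also holds the metal response core shown above, had no such separation. The difference between the responses of Mt2A and Slc30a1 was not tested.

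Among the remaining zinc genes the smallest unadjusted p-values belonged to Slc30a7, Slc39a2 and Mtf1. Slc30a7, which supplies zinc to the Golgi, had 127.7, 138.2 and 144.2 in low Fe, against 104.6, 91 and 123.2 in high Fe, without overlap (0.33 ± 0.18, limma adjusted p = 0.774). Slc39a2, a plasma membrane importer read on 230B, had 321.5, 395.8 and 420.3 in low Fe, against 428.8, 453.9 and 655.7 in high Fe, also without overlap (-0.40 ± 0.23, adjusted p = 0.552). Mtf1 on 230A had 434.6, 424.6 and 455.7 in low Fe, against 484, 297 and 308.7 in high Fe, where high Fe replicate 1 lay above all low Fe arrays (0.29 ± 0.19, adjusted p = 0.800).

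The genes whose log2 signals followed those of Slc39a4 most closely over the 6 230A arrays, among 7050 named genes, were Pbx3, a homeobox factor (Pearson r = 0.993), Hint3, a nucleotide hydrolase (0.979), and Ifit1, an interferon-induced gene (0.966). For the brightest Slc39a6 probe set they were, among 4058 named genes on 230B, Slfn9, of the schlafen family (0.985), Atp7a, the copper-exporting ATPase (0.984), and Thoc2, of the mRNA export complex THO (0.981). The Atp7a log2 difference was 1.40 (limma adjusted p = 0.139). These values rest on 6 arrays in 2 groups and are a description, since many genes reach high correlations over so few points.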

How the data were processed

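Gene expression was measured in low Fe and high Fe jejunal scrapings, 3 samples each, on Affymetrix rat arrays 230A and 230B (12 arrays). Groups and replicate numbers come from the titles. The tables deposited by the authors hold 1 linear intensity per probe set and array. Their software was not given in the sources used here. The mean after trimming 2% off either end equalled 500.1 on all 230A arrays and 500.2 on all 230B arrays, a scaling by the authors that removes shifts shared by most genes. Median signals ran from 154 to 176 and from 259.5 to 302.6, and precision is limited by the small number of arrays. Gene symbols come from the platform annotation, which gave 1 symbol to 12783 of 15866 probe sets on 230A and 7564 of 15276 on 230B, with 312 and 100 having several and 2771 and 7612 none, after 57 controls were left out of each.

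Values were taken as log2(signal + 16), and probe sets in the lowest 40% by mean log2 value were dropped (boundary 106 and 182.9). The low Fe minus high Fe contrast was fitted in limma 3.58.1 (R 4.3.3; lmFit, eBayes with trend) per array type, with Benjamini-Hochberg adjustment and a threshold of 0.05. Steps were tested on simulated data. The members and lists were chosen with earlier results of these data known. Named were all member probe sets, the 4 other zinc probe sets with the smallest p, 4 iron genes and the 3 genes most correlated with the member of smallest p per array type. Deviations of same-numbered arrays from their group means correlated from -0.356 to -0.099, and those of different-numbered arrays from -0.096 to 0.283. For this reason the numbers were not used as pairs. The ratio sets cut across the numbers, so these correlations cannot show whether the samples were paired. Alternatives were other pseudocounts (1, 64), filters (none, 60%), scalings, eBayes without trend or robust, blocks, a threshold of 0.1, and each array left out. Protein sequences were not used here.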

Additional observations from a re-analysis of the deposited data

How the results depend on the processing

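No member probe set passed under any of the alternatives run, and the smallest adjusted p of a member was 0.293, for Slc39a4 without low Fe replicate 1. Of the member log2 differences under alternatives, 202 kept their direction and 16 were reversed. The 202 include the filters, the eBayes variants and the replicate block, which leave the estimate unchanged by construction and could reverse none. With arrays set to a common median the reversed ones were Slc39a1 (0.0571) and Slc39a8 (0.0423), and with scaling to the hybridization controls Slc39a1 (0.35), Slc39a8 (0.33) and Slc30a4 (0.13) on 230A and Slc30a2 (0.0112) on 230B. With the RNA quality block Slc39a14 on 230B was reversed (0.0087). Over left-out arrays Slc39a1 ran from -0.0519 to 0.0631, Slc39a8 from -0.0828 to 0.0202, Slc30a1 from -1.17 to 0.059, Slc39a7 from -0.0046 to 0.25, and Slc39a14 on 230A from -0.0215 to 0.16. Slc30a2 ran from -0.0083 to 0.16 on 230A, and its 230B values lay between -0.36 and 0.049. The cause of these reversals was not tested. The count over all 230A probe sets, 9, was 33 after scaling to the hybridization controls, 14 with the RNA quality block, 15 at a threshold of 0.1, 4 with the replicate number as a block, and 5 to 21 over left-out arrays (21 without low Fe replicate 1, 5 without low Fe replicate 2). On 230B the count was 3 after scaling to the hybridization controls. The same scaling called 1 other zinc gene on 230A, Mt2A, in a fit with 38100 degrees of freedom for 6 arrays. With the replicate block no member passed, and Slc39a4 had -0.40 ± 0.13 (limma adjusted p = 0.95), an estimate that this block cannot change. With 3 arrays per group, member standard errors were 0.12 to 0.57 for 230A, and for 230B they were 0.19 to 0.48.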

Other observations

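Below the filter on dim signals, 2 zinc genes on 230B, chosen after their values were seen, stood apart between the groups. They were the 2 dim zinc probe sets on 230B, where 3.58% of all 6111 dim probe sets had every low Fe array above every high Fe array. None of the 5 dim zinc probe sets on 230A did so. A further probe set of Mtf1, the zinc-sensing transcription factor, had 206.9, 325.4 and 185.2 in low Fe replicates 1 to 3, against 96.5, 59.1 and 41.8 in high Fe replicates 1 to 3. In the fit without a filter its log2 difference was 1.66 ± 0.40 (limma adjusted p = 0.469). Mt4, a metallothionein known from stratified epithelia, had 230.1, 250.7 and 256.1 in low Fe, against 185.5, 53.3 and 100.5 in high Fe, a difference of 1.15 ± 0.43 (adjusted p = 0.536). Neither passed. Without a filter the 5 on 230A gave 0.30 ± 0.46 for Mt1, 0.18 ± 0.23 for Mt3, -0.16 ± 0.29 for Mtf1, -0.32 ± 0.46 for Tmem163 and -0.02 ± 0.48 for Slc30a9.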
